A study of Mus musculus with 12 samples.

Results

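The genes described here are the cadherins and the non-clustered protocadherins of the mouse cochlea. They are the genes whose name in the array files is Cdh or Pcdh followed by digits alone, apart from Cdh23 and Pcdh15, which form the tip link of the hair bundle, and the endothelial Cdh5. By this rule 32 of the 19505 genes on the array were members, with 316 of the 165865 probes. The cochlea of 4 male C57BL/6 mice aged 6 weeks was cut into an apical, a middle and a basal turn, and 25 ng of total RNA of each sample was hybridized to an Agilent exon array, giving 4 arrays per turn. The mice shared strain, sex and age, and the labels name no treatment. Every piece held the sensory epithelium together with the lateral wall and the spiral ganglion neurons, so that each turn was a mixture of cell types. In such bulk samples fewer cells of a type and less RNA per cell cannot be told apart.

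Cadherins are membrane proteins that hold neighboring cells together. Their extracellular repeats are stiffened by calcium, the outermost repeat binds a cadherin of the next cell, and in classical cadherins the cytoplasmic tail binds p120-catenin and beta-catenin, which links through alpha-catenin to actin. Type I cadherins such as E-cadherin and N-cadherin form strong epithelial and neural junctions, whereas type II cadherins sort neurons and connective tissue cells into groups, and non-clustered protocadherins mediate weaker adhesion and steer axons and cell movement. In the cochlea, E-cadherin and N-cadherin are known for the junctions of the sensory epithelium.

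The 12 arrays lay on 3 slides, 1 slide per turn, so that turn and slide cannot be told apart. Between 77.4% and 81.4% of the probe spots of an array were well above background, and no probe spot was saturated. The 75th percentile of the signal was between 534.6 and 722.1 before scaling, and all arrays were scaled to 641.3. A gene value is the mean of the log2 scaled signals of its probes. Turn means below are the back-transformed means of 4 arrays, differences are on the log2 scale, and a signal is compared only with that of the same gene, since probes differ in brightness. The moderated F test of limma over the 3 turns with an adjusted p below 0.05 and turn means at least 2-fold apart is called the 2-fold rule, and the moderated contrast of a pair of turns with an adjusted p below 0.05, with no fold threshold, is called the contrast test. Markers fixed for each cell type were on the array at a signal above background, including 7 of 7 for hair cells, 7 of 7 for spiral ganglion neurons and 4 of 4 for spiral ligament fibrocytes, so markers of the labeled tissue were present.

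Of the 32 members, 31 had at least 1 probe well above background throughout a turn, meaning on each of its 4 arrays. The exception was Cdh29. In 14 members most probes did not reach that level, and these members are called dim here. All 32 were tested, without a filter on low signals.

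By the 2-fold rule, 4 members (Cdh6, Cdh9, Cdh18 and Pcdh17) were higher in the apical than in the basal turn, or 12.5% of members, where 3.27% of all genes were called. By the same limma rule 0 members were higher in the basal turn, where 1.12% of all genes were, and 0 were with an unadjusted p below 0.05 in place of the adjusted one. By the contrast test 9 members were higher in the apical turn, or 28.1%, beside 17.6% of all genes, and 4 were higher in the basal turn, or 12.5%, beside 21.6% of all genes. The 4 apical and 4 basal arrays did not overlap in 9 members that were higher apically, beside 16.9% of all genes, and in 2 members that were higher basally, beside 21.4% of all genes. The median difference between apical and basal turns was 0.11 over members and -0.04 over all genes. The median absolute difference was 0.26 over members and 0.19 over all genes.

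The other pairs of turns gave fewer calls. Between apical and middle turns the 2-fold rule called 0 members in either direction with limma, beside 0.297% of all genes higher in the apical turn and 0.138% higher in the middle turn. An unadjusted p below 0.05 in this contrast was found in 8 members, none of them 2-fold apart, with differences from -0.56 to 0.97. The contrast test called Cdh6, Pcdh17 and Cdh13 higher in the apical turn, 3 members beside 4.42% of all genes, and Cdh19 higher in the middle turn, 1 member beside 7.59% of all genes. Between middle and basal turns the 2-fold rule called Cdh9 and Cdh18, both higher in the middle turn, beside 2.2% of all genes, and no member higher in the basal turn, beside 0.456%. The contrast test called 9 members higher in the middle turn, beside 11.7% of all genes, and 2 (Cdh3 and Cdh29) higher in the basal turn, beside 9.21% of all genes.

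**Figure D1:**
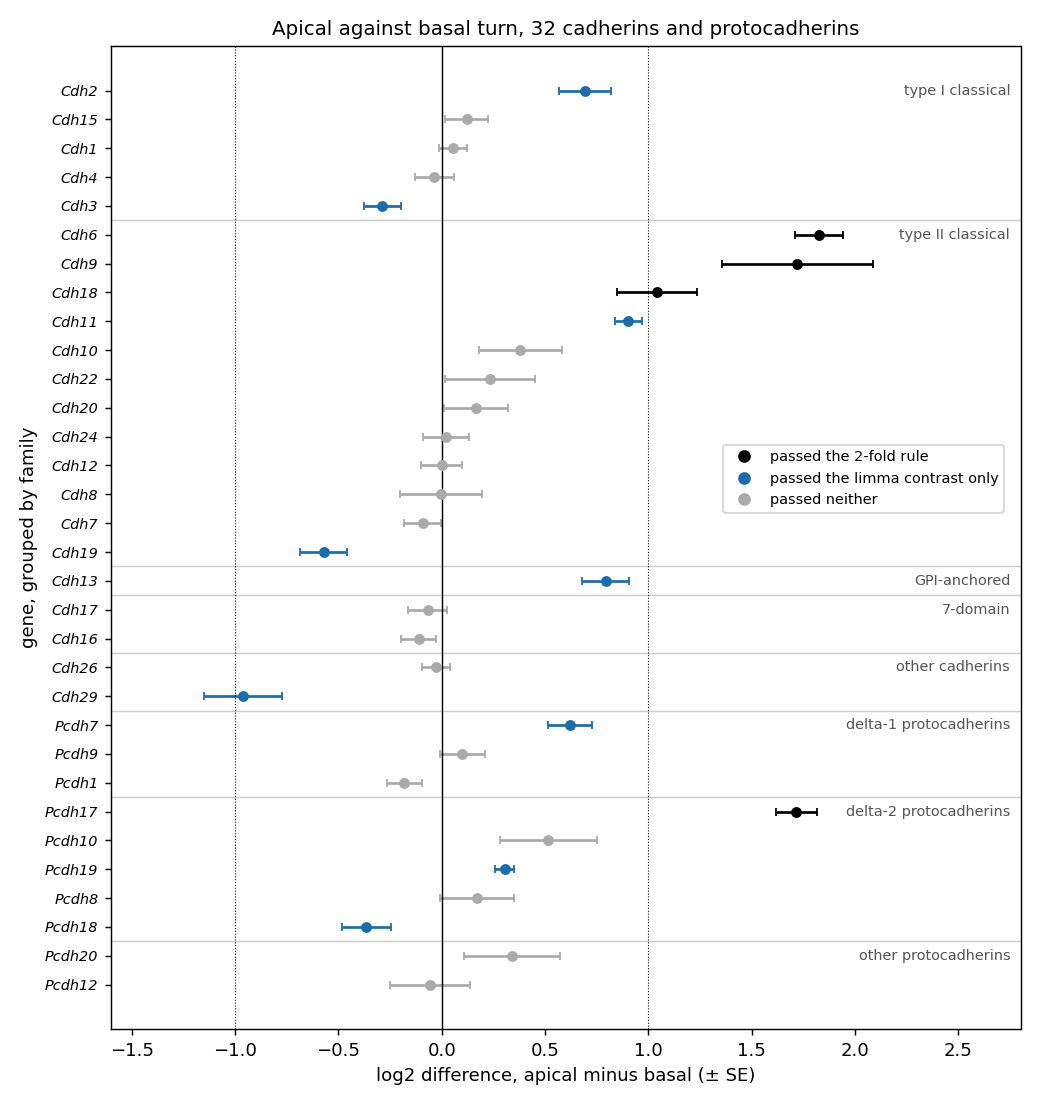
Difference between apical and basal turns on the log2 scale (x axis, positive when the apical turn was higher) for each of the 32 genes (y axis, grouped by family), with standard errors from the limma fit over 4 arrays per turn and dotted lines at 2-fold. The 4 genes that passed the 2-fold rule (Cdh6, Cdh9, Cdh18 and Pcdh17) lie at or above 1.04, and the 19 genes that passed neither test lie between -0.18 and 0.52. Cdh29 is plotted from probes near background.

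Of the 4 members that passed the 2-fold rule, 3 are type II cadherins. Of 12 members of this family, 4 were higher in the apical turn by the contrast test (Cdh6, Cdh9, Cdh11 and Cdh18), 1 was higher in the basal turn (Cdh19) and 7 did not pass, beside 17.6% and 21.6% of all genes in these directions. The median difference of the family was 0.20, and the family was not tested as a group.

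Cdh6, K-cadherin, known from the developing kidney and from boundaries within neural tissue, had the largest difference of any member. Its scaled signal was 193, 202, 200 and 169 on the apical arrays. It was 106, 108, 91.8 and 84.3 on the middle arrays. On the basal arrays it was 57.8, 43.1, 54.3 and 61.8. The 3 turns did not overlap, and the level fell at each step from apex to base. The difference between apical and basal turns was 1.83 ± 0.118 (SE, n = 4 per turn, limma adjusted p = 1.52e-06), that between apical and middle turns was 0.97 (adjusted p = 0.00105) and that between middle and basal turns was 0.85 (adjusted p = 0.000859).

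Pcdh17, a protocadherin of the delta-2 group known for grouping axons and synapses in corticobasal circuits, had a like pattern. Its scaled signal was 278, 357, 297 and 280 on the apical arrays, 144, 178, 150 and 156 on the middle arrays, and 102, 89.5, 82.3 and 94.2 on the basal arrays. Again no turn overlapped with another. The difference between apical and basal turns was 1.72 ± 0.0988 (SE, limma adjusted p = 7.49e-07), with 0.94 between apical and middle turns (adjusted p = 0.000472) and 0.77 between middle and basal turns (adjusted p = 0.000537).

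Cdh9, a cadherin of neurons that pairs cells across certain synapses, was low in the basal turn alone. Its scaled signal was 114, 92.2, 122 and 93.7 on the apical arrays. On the middle arrays it was 155, 92.4, 108 and 95.2. The basal arrays gave 30.5, 17.9, 77.2 and 24.2, so that basal replicate 3 stood nearest to the other turns and the remaining basal arrays lay well below it. The difference between apical and basal turns was 1.72 ± 0.367 (SE, limma adjusted p = 0.00334) and that between middle and basal turns was 1.79 (adjusted p = 0.00712), whereas apical and middle turns differed by -0.07 (adjusted p = 0.917). Without basal replicate 3 the difference between apical and basal turns was 2.15, and without basal replicate 2 it was 1.45. All 12 Cdh9 probes were well above background throughout the apical turn, but only 2 were so throughout the basal turn. The size of the difference thus rests in part on signals near background.

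Cdh18, a type II cadherin of the nervous system, had the same order of basal arrays and a smaller difference. Its scaled signal was 89.7, 76.9, 81.8 and 78.7 on the apical arrays, 113, 67.3, 77.9 and 72.1 on the middle arrays, and 37.7, 32.2, 58.3 and 34.9 on the basal arrays. Basal arrays were below all others, with basal replicate 3 the highest of them and basal replicate 2 the lowest. The difference was 1.04 ± 0.193 between apical and basal turns (SE, limma adjusted p = 0.00147), 1.03 between middle and basal turns (adjusted p = 0.00483) and 0.01 between apical and middle turns (adjusted p = 0.972).

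These 4 calls depended in part on how low signals were treated. With normexp background correction the differences between apical and basal turns were 0.94 for Cdh6, 0.72 for Cdh9, 0.42 for Cdh18 and 1.18 for Pcdh17, so that only Pcdh17 stayed above 2-fold, and each still passed the limma contrast. Over 27 settings in all, the Cdh18 difference was under 2-fold in 8.

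**Figure D2:**
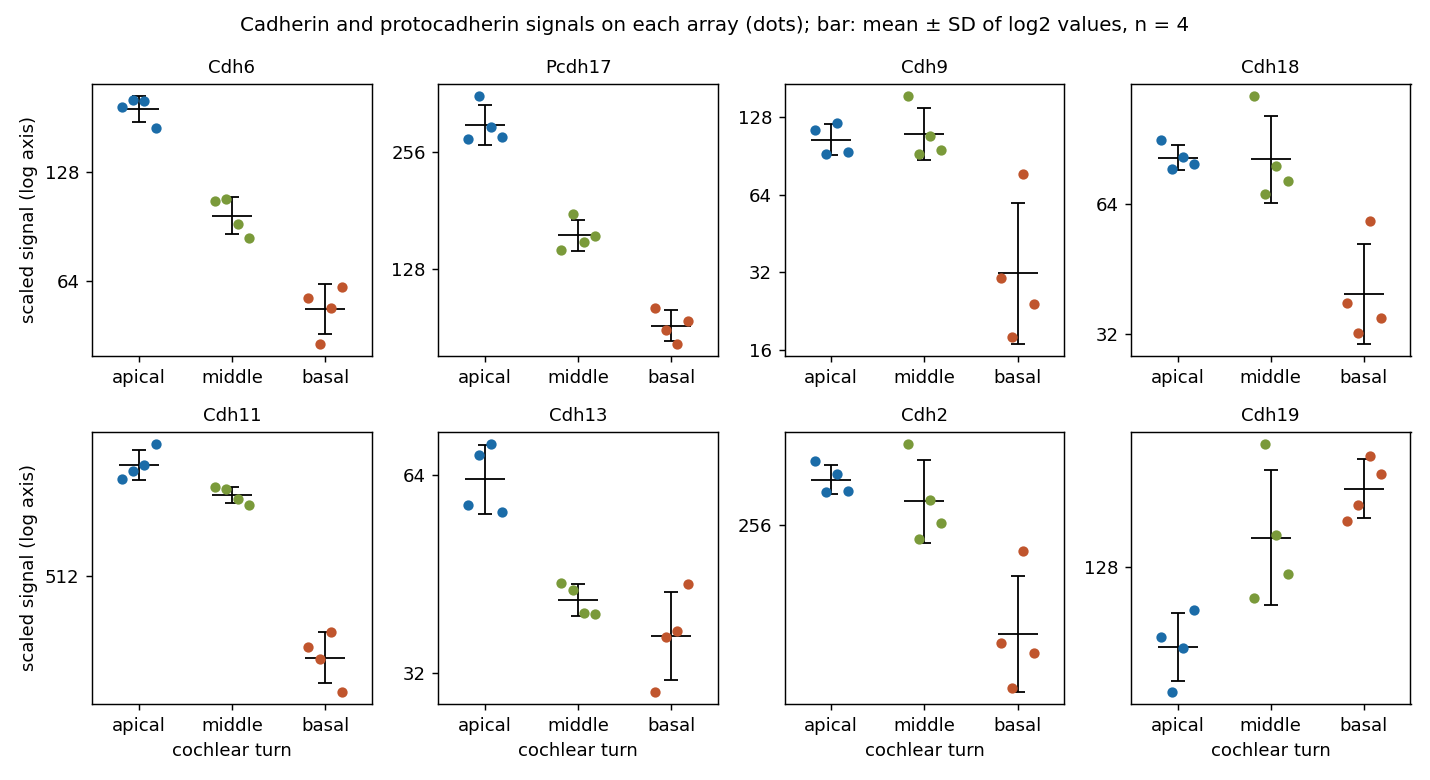
Scaled signal (y axis, log scale) on each array for 8 genes, with the cochlear turn on the x axis; dots are arrays, and bars are the mean and SD of the log2 values of 4 arrays. Cdh6 and Pcdh17 fell at both steps, Cdh9 and Cdh18 were low in the basal turn with basal replicate 3 the highest basal array, and Cdh19 was lowest in the apical turn.

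The order of basal arrays in Cdh9 and Cdh18 was also that of neuronal markers. The summed signal of 7 spiral ganglion neuron markers was 24806 to 32366 in the apical turn, 22334 to 39697 in the middle turn and 4742 to 20601 in the basal turn. Of these 7 markers, 5 were higher in the apical turn by the 2-fold rule and 1 was higher in the basal turn by the contrast test. The sum was 20601 on basal replicate 3, 9561 on basal replicate 1, 7095 on basal replicate 4 and 4742 on basal replicate 2, and the highest array of all was middle replicate 1 with 39697. Cdh9 and Cdh18 were also highest on middle replicate 1. The basal arrays fell in the same order in the summed hair cell markers, with 1009, 867, 854 and 623, and in the summed Schwann cell markers, with 12686, 9047, 7894 and 6596. Over all 7 hair cell markers the ranges were 2165 to 2588 in the apical, 1727 to 1925 in the middle and 623 to 1009 in the basal turn, and all 7 were higher in the apical turn by the contrast test. Every marker of these lists that was found on the array was above background. The part of these cell types in the Cdh9 and Cdh18 differences was not tested.

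**Figure D3:**
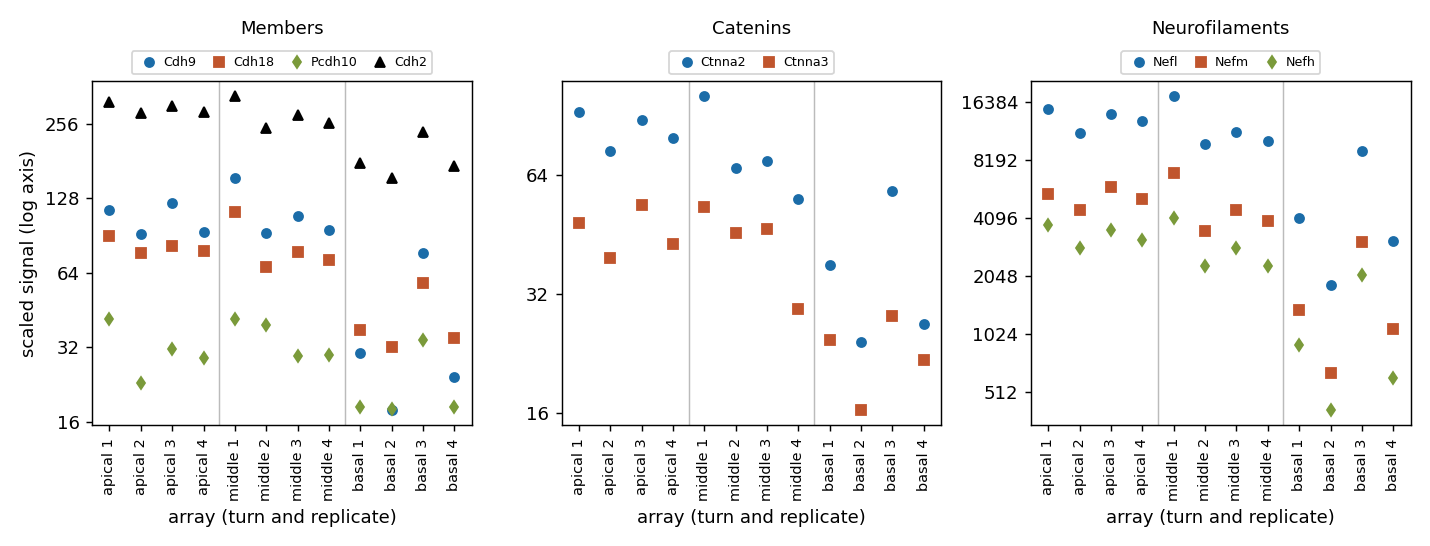
Scaled signal (y axis, log scale) on each of the 12 arrays (x axis, turn and replicate) for 4 members, 2 alpha-catenins and 3 neurofilament genes. In Cdh9, Cdh18, Cdh2 and all 3 neurofilament genes, basal replicate 3 was the highest and basal replicate 2 the lowest of the basal arrays.

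Cdh11, osteoblast cadherin, known from mesenchyme and connective tissue, was lower in the basal turn with little spread. Its turn means were 734, 666 and 393 from apex to base, with basal arrays from 351 to 427 and all others from 644 to 785. The difference between apical and basal turns was 0.90 ± 0.0633 (SE, limma adjusted p = 2.54e-06) and that between middle and basal turns was 0.76 (adjusted p = 3.87e-05). Summed over 6 osteoblast and bone markers, the signal was 1182.8, 1784.5, 1407.3 and 4969.2 on the apical arrays. It was 1539.8 to 1655.5 in the middle and 2261.1 to 2965.4 in the basal turn. The high value was that of apical replicate 4, on which Cdh11 was also highest, at 785, while the other apical arrays lay below every basal array. Of the 6 markers, 0 were higher in the apical and 1 was higher in the basal turn by the contrast test. The share of bone cells in the Cdh11 value was not tested.

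Cdh19, a type II cadherin of Schwann cells and melanocyte-lineage cells, ran the other way. Its turn means were 105, 138 and 156 from apex to base, and the apical arrays, at 93.5 to 115, did not overlap with the basal arrays, at 144 to 169. The difference between apical and basal turns was -0.57 ± 0.114 (SE, limma adjusted p = 0.00223) and that between apical and middle turns was -0.39 (adjusted p = 0.0467). The call between apical and middle turns was lost in 10 of 12 fits that left out 1 array, every one except those without apical replicate 4 or middle replicate 1, with differences of -0.47 to -0.28 over the 12 fits, and with the replicate block (adjusted p = 0.0632). That between apical and basal turns was lost with the mean of linear probe signals (adjusted p = 0.0997). All 7 Schwann cell markers on the array were higher in the apical turn by the contrast test, while 5 of 6 markers of melanocytes and strial intermediate cells were higher in the basal turn, with summed signals of 36676 to 42846 in the apical and 56749 to 77209 in the basal turn. The part of these cells in the Cdh19 difference was not tested.

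The remaining 7 type II members did not pass the contrast between apical and basal turns. Cdh10 differed by 0.38, Cdh22 by 0.23, Cdh20 by 0.17, Cdh24 by 0.02, Cdh12 by 0.00, Cdh8 by -0.01 and Cdh7 by -0.09. The Cdh10 difference was 0.54 without basal replicate 3, which passed (adjusted p = 0.0439), and 0.20 without basal replicate 2, which did not. Most of these genes are known from neurons, and most are dim here. Cdh12 had 1 of 11 probes well above background throughout a turn, Cdh10 had 1 of 11, Cdh7 had 2 of 10, Cdh20 had 2 of 11 and Cdh8 had 3 of 14. Cdh8 had its highest mean in the middle turn, with 25.4 against 17.2 in the apical and 17.2 in the basal turn, and neither difference passed (adjusted p = 0.0864 and 0.0692).

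Of the 12 type II genes, 5 lie in a stretch of chromosome 15. In the mm9 assembly used by the array files their probes lie within chr15:12963981-23404110, in the order Cdh6, Cdh9, Cdh10, Cdh12 and Cdh18. Of these 5, Cdh6, Cdh9 and Cdh18 passed the 2-fold rule, and they are 3 of the 4 members that did, while Cdh10 and Cdh12, which lie between Cdh9 and Cdh18, did not pass. The same rule called 3.27% of all genes, other genes of the stretch were not examined, and location was not tested. The fourth member, Pcdh17, lies on chromosome 14. The 7 members on chromosome 8, among them Cdh11, held no 2-fold call.

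Among the 5 type I cadherins, 1 was higher in the apical turn, 1 was higher in the basal turn and 3 did not pass the contrast test. Cdh1, E-cadherin, the adhesion protein of epithelia, gave 1662, 1858, 1622 and 1643 on the apical arrays. It gave 1427, 1646, 1525 and 1590 on the middle arrays and 1668, 1730, 1494 and 1649 on the basal arrays. The turns overlapped, and the difference between apical and basal turns was 0.05 ± 0.067 (SE, limma adjusted p = 0.602). Its sign turned with scaling to the median or to the spike-in probes and with linear means of probes. All 16 probes of Cdh1 were well above background on every array, so that low signal did not limit this comparison.

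Cdh2, N-cadherin, which is used by neurons and by hair cells and their supporting cells, was lower in the basal turn. The apical arrays gave 312, 284, 301 and 285, and the middle arrays gave 330, 245, 277 and 258. The basal arrays gave 177, 154, 236 and 172. No basal array reached the lowest array of the other turns, and the order of the basal arrays was that seen in Cdh9. The difference between apical and basal turns was 0.69 ± 0.126 (SE, limma adjusted p = 0.00126) and that between middle and basal turns was 0.59 (adjusted p = 0.00827). Scaled to the spike-in probes, neither difference passed.

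Cdh3, P-cadherin, was slightly higher in the basal turn, with turn means of 86.0, 79.2 and 105 from apex to base and a difference of -0.29 ± 0.0909 (SE, limma adjusted p = 0.0267). This call was lost without apical replicate 4, basal replicate 1 or basal replicate 4 and in 3 other settings. Cdh4, R-cadherin, had means of 61.8, 67.7 and 63.3 and differed by -0.04 between apical and basal turns. Cdh15, muscle cadherin, had its highest mean in the middle turn, 44.9 against 37.8 and 34.8, and passed between middle and basal turns (0.37, adjusted p = 0.0266). This call was lost without middle replicate 1 or basal replicate 2 and with each other scaling, at 0.22 with quantile normalization (adjusted p = 0.138), 0.31 scaled to the median (adjusted p = 0.0523) and 0.10 scaled to the spike-in probes (adjusted p = 0.511), and it was 0.16 with normexp (adjusted p = 0.168). Summed skeletal muscle markers were 598 to 655 in the apical turn, 455 to 585 in the middle turn and 580 to 730 in the basal turn. Of these 7 markers, 1 was higher in the apical and 1 in the basal turn by the contrast test between those turns.

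Cdh13, T-cadherin, which is held in the membrane by a lipid anchor and has no cytoplasmic tail, was higher in the apical turn than in either other turn. Its means were 63.1, 41.3 and 36.4 from apex to base, and the lowest apical array, at 56.2, was above the highest array of the other turns, at 43.8. The difference was 0.79 ± 0.114 between apical and basal turns (SE, limma adjusted p = 0.000304) and 0.61 between apical and middle turns (adjusted p = 0.00872). The call between apical and middle turns was lost with normexp correction, at 0.18 (adjusted p = 0.0713), and with medians of probes, at 0.46 (adjusted p = 0.13). Middle and basal turns differed by 0.18 (adjusted p = 0.275). In Cdh13 the call besides that of apex against base was between apical and middle turns, while in Cdh9, Cdh18, Cdh11 and Cdh2 it was between middle and basal turns. The steps were not tested against each other.

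Cdh16 and Cdh17, long cadherins known from kidney and intestine, differed by -0.11 and -0.07 between apical and basal turns and did not pass. Cdh26 differed by -0.03 and did not pass. Cdh29 passed the contrast as higher in the basal turn (limma adjusted p = 0.00206), with apical arrays at 7.23 to 11.3 and basal arrays at 12.7 to 22.2. None of its 4 probes was well above background throughout a turn, and in the middle turn none was so on any array, so that no size is given for the difference and the call rests on signals near background.

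The delta-1 protocadherins bind protein phosphatase 1 with their tails. Pcdh7 was higher in the apical turn, with means of 190, 162 and 124 from apex to base and a difference of 0.62 ± 0.109 (SE, limma adjusted p = 0.00102), and scaled to the spike-in probes it did not pass. Pcdh1 differed by -0.18 (adjusted p = 0.12) and Pcdh9 by 0.10 (adjusted p = 0.538). Pcdh1 passed as higher in the basal turn when scaled to the median, at -0.30 (limma adjusted p = 0.0109). It also passed with linear means of probes, at -0.26 (adjusted p = 0.0191), and scaled to the spike-in probes, at -0.67 (adjusted p = 0.000292). Among the delta-2 group, Pcdh19, the gene of an X-linked epilepsy, had a small difference with narrow spread. The apical arrays gave 272 to 281, the middle arrays 231 to 261 and the basal arrays 219 to 228. The difference was 0.30 ± 0.0466 (SE, limma adjusted p = 0.000444). Scaled to the spike-in probes its sign turned, to -0.18 (adjusted p = 0.129).

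Pcdh18 was higher in the basal turn, with means of 85.5, 90.9 and 110 from apex to base and a difference of -0.36 ± 0.118 (SE, limma adjusted p = 0.0292), although its F test over the 3 turns gave an adjusted p of 0.0619. The contrast call was lost without apical replicate 2, 3 or 4, without basal replicate 1, 3 or 4, and when only the arrays of the compared turns were fitted. Pcdh10 differed by 0.52 (adjusted p = 0.109), with basal arrays at 18.3, 18.1, 34.2 and 18.4, so that basal replicate 3 again stood out. Without basal replicate 3 the difference was 0.74 and passed (adjusted p = 0.00999), and without apical replicate 1 it was 0.37 and did not pass. Pcdh8, with 1 of 4 probes well above background throughout a turn, differed by 0.17 and did not pass. The other protocadherins, Pcdh12, known from endothelium, and Pcdh20, differed by -0.06 and 0.34 and did not pass. In Pcdh12, too, 1 of 4 probes was well above background throughout a turn. Pcdh20 rests on 2 probes, of which 1 was well above background, and its apical arrays spread from 105 to 215. Without apical replicate 1, the lowest, it differed by 0.57 and passed (adjusted p = 0.032), and without apical replicate 2 it differed by 0.23 and did not pass. With all arrays kept, Pcdh20 passed at 0.27 with normexp (limma adjusted p = 0.0218) and at 0.58 with linear means of probes (adjusted p = 0.00835). With probes well above background only it passed at 0.59 (adjusted p = 0.00604).

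Ordered by turn means alone, 11 members were highest at the apex and lowest at the base, 4 had the opposite order, 12 were highest in the middle turn and 5 were lowest there. Over all genes these orders made up 22.6%, 28.7%, 34% and 14.6%. Most of these orders rest on differences that did not pass a test.

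The exon probes showed whether the parts of a transcript moved together. By the probe-level limma contrast 85 of the 316 probes were higher in the apical turn, or 26.9%, beside 18% of all probes, and 23 were higher in the basal turn, or 7.28%, beside 16.4%. All 12 probes of Cdh9 and all 11 of Cdh11 were called higher in the apical turn, as were 15 of 16 in Cdh2, 10 of 11 in Cdh6, 9 of 11 in Cdh18, 8 of 13 in Cdh13 and 3 of 3 in Pcdh17. In Cdh19 10 of 11 were called higher in the basal turn. A second test compared each probe with the mean of the other probes of its gene. It called 24 of 312 member probes, or 7.69%, beside 10.4% of all probes in genes with at least 3 probes, so that members had no larger share than the array.

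The calcium-binding linker between cadherin repeats can be sought in the probe sequences. Its amino acid core, Asp-x-Asn-Asp-Asn-x-Pro, was searched on both strands as the letters GANNNNAANGANAANNNNCC, in which N is any base. These letters were in 19 of the 316 member probes, or 6.01%, all on the probe strand and in 15 cadherin genes, and in 57 of 165668 other probes, or 0.0344%. None of the 40 protocadherin probes held them, which says only that these letters are not in those 60-base windows. The first such probe of 4 type II members whose level differed along the cochlea is shown 5′ to 3′, with the matching letters in capitals.
Cdh6 (A_56_P213878, chr15:12994054-12994113, minus strand): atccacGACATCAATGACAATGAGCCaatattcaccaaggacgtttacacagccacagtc
Cdh18 (A_56_P212787, chr15:23156623-23156682, plus strand): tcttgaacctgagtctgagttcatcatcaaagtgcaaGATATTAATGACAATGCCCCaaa
Cdh11 (A_56_P124691, chr8:105191898-105191957, minus strand): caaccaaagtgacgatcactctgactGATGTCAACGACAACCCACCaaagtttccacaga
Cdh19 (A_56_P073978, chr1:112826417-112826476, minus strand): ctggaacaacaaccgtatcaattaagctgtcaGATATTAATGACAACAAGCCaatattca
The Cdh6 probe had means of 137, 65.3 and 38.8 from apex to base and the Cdh18 probe had 112, 104 and 49.4, as in the values of the whole genes.

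A single Cdh6 probe lacked the pattern of the gene. The other 10 probes differed by 1.44 to 2.48 between apical and basal turns, with a median of 2.02. Probe A_56_P213885 had means of 420, 403 and 409 from apex to base and a difference of 0.04 ± 0.0827 (SE, limma adjusted p = 0.75). Against the other probes of Cdh6 it was off by -1.96 (adjusted p = 5.17e-05), the largest deviation of any member probe that passed. It is shown in lower case between its neighbors in the transcript, all on the minus strand.
A_56_P213884 (chr15:12972314-12972373): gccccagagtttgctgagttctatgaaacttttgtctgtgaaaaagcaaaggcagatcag
A_56_P213885 (chr15:12971102-12971161): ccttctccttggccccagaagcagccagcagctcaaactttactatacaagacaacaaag
A_56_P213886 (chr15:12970903-12970962): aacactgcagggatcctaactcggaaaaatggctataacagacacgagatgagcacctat
The neighbors had means of 191, 90.4 and 46.3 for A_56_P213884 and of 130, 57.2 and 32.4 for A_56_P213886. The flat probe shared no run of 20 bases with a probe of another gene on the array, on either strand. Of all 316 member probes, 9 did, among them A_56_P213881 of Cdh6 with Cdh9 and A_56_P212825 of Cdh9 with Cdh6. At the other end, the Cdh6 probe with the largest difference, A_56_P213877, was not well above background on any basal array and was at least 3.46-fold higher in the apical turn, with measured means of 94.1 and 16.9.

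**Figure D4:**
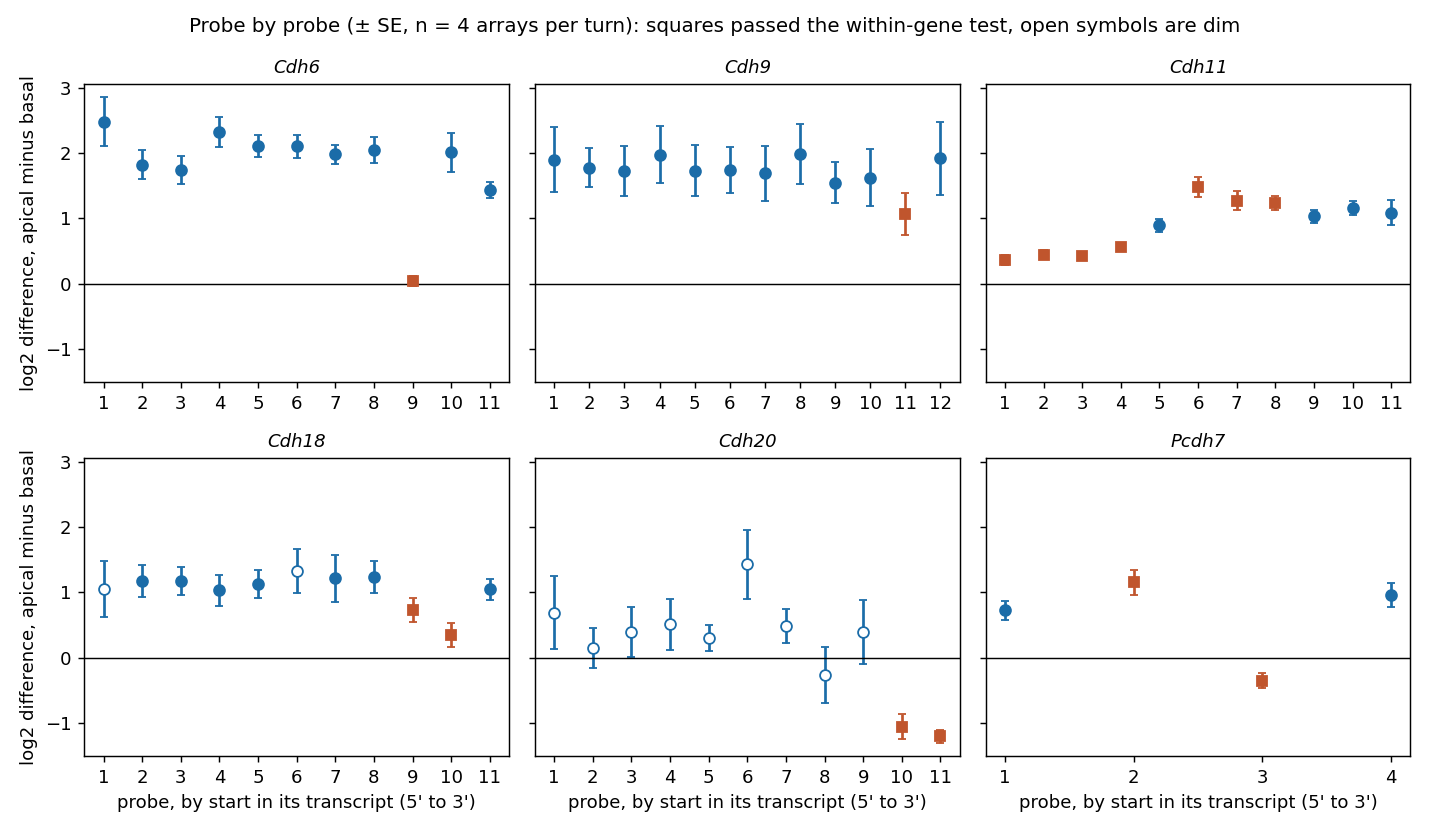
Difference between apical and basal turns on the log2 scale (y axis, with SE, n = 4 arrays per turn) for each probe of 6 genes, ordered along the transcript (x axis); squares passed the within-gene test and open symbols mark probes not well above background throughout any turn. The ninth Cdh6 probe lies at 0.04 among probes at 1.44 to 2.48, the 4 leading probes of Cdh11 lie at 0.36 to 0.56, the last 2 probes of Cdh20 lie below 0, and a probe of Pcdh7 lies at -0.36.

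In Cdh20 the few probes with signal differed in sign from the gene mean. The last 2 probes along the transcript were the only ones well above background throughout a turn, and both were higher in the basal turn. Probe A_56_P072452 had means of 54.1, 56.2 and 112 from apex to base, a difference of -1.06 ± 0.192 (SE, limma adjusted p = 0.00193). Probe A_55_P2061849 had means of 27.4, 40.6 and 63.3, a difference of -1.21 ± 0.0964 (SE, limma adjusted p = 1.27e-05). They deviated from the other probes by -1.34 and -1.51. The mean over all 11 probes of Cdh20 differed by 0.17. Probe A_56_P072452 was well above background on every array, but A_55_P2061849 was so throughout the basal turn only, so that a mean over these probes favors the basal direction and is not used here. Cdh12 was similar in kind, with a single bright probe, A_55_P2103746, at means of 245, 217 and 169 from apex to base, which was higher in the apical turn by 0.54 ± 0.135 (SE, limma adjusted p = 0.0106), while the gene mean over 11 probes gave 0.00.

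A single Pcdh7 probe went against the others. Probes A_56_P065773 and A_55_P2035167, assigned to NM_001122758, were higher in the apical turn by 1.15 and 0.96. Probe A_51_P260740, assigned to NM_018764 and late in it, had means of 96.4, 83.1 and 123 and was higher in the basal turn, with a difference of -0.36 ± 0.113 (SE, limma adjusted p = 0.0316) and a deviation of -1.30 from the other probes. Probe A_56_P065771, also assigned to NM_018764 and earlier in it, was higher in the apical turn by 0.73, so that the direction did not follow the assigned transcript.

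In Cdh11 the size of the difference changed along the transcript, a split noticed after its values were seen. The 4 probes nearest the 5′ end differed by 0.36 to 0.56, and the 7 that follow differed by 0.89 to 1.48. The 4 probes were also the brightest, at 1514 to 3111 in the apical turn, against 151 to 840 for the others, so that position and brightness cannot be told apart here. Among the 11 probes, 7 passed the within-gene test, 4 of them below and 3 above the mean of the others.

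Smaller deviations were found in the other members that passed the 2-fold rule. In Cdh9 the largest difference was 1.98, at A_56_P212828, well above background on 1 of 4 basal arrays, and the smallest was 1.06, at A_55_P2156663, the next to last probe. In Cdh18 the smallest was 0.35, at A_56_P212795 near the 3′ end, with means of 59.3, 70.5 and 46.7 and a deviation of -0.77. The largest difference in Cdh18 was 1.32 at A_56_P212791, which was well above background on 1 apical and no basal array and was at least 1.05-fold higher in the apical turn. The 3 Pcdh17 probes ranged from 1.44 at A_56_P190738 to 1.87 at A_56_P190737.

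Genes that work with cadherins were counted as a list of 33, of which 31 were on the array under those names. By the contrast test 11 were higher in the apical and 8 in the basal turn, beside 17.6% and 21.6% of all genes, and the median difference was 0.05. By the 2-fold rule 2 of the 31 were higher in the apical turn, beside 3.27% of all genes, and 0 in the basal turn, beside 1.12%. Both are alpha-catenins, the link between cadherin complexes and actin. Ctnna2, the neuronal alpha-catenin, had means of 83.2, 71.6 and 34.6 from apex to base and a difference of 1.26 ± 0.259 (SE, limma adjusted p = 0.00266). Its basal arrays, at 38.0, 24.1, 58.5 and 26.8, had the order seen in Cdh9. Ctnna3, the alpha-catenin of heart muscle, had means of 45.8, 42.8 and 22.2 and a difference of 1.04 ± 0.201 (SE, limma adjusted p = 0.00185). Its basal arrays, at 24.5, 16.3, 28.1 and 21.7, had that order too. Throughout the basal turn 5 of 18 Ctnna2 probes and 3 of 17 Ctnna3 probes were well above background, against 17 and 10 in the apical turn. The sizes of both differences thus rest in part on signals near background. Basal arrays of Magi2 and Wasf1 in the list and of the members Pcdh7, Cdh4, Cdh8 and Cdh10 also fell in the order seen in Cdh9. In Cdh4 and Cdh8 some of these arrays were nearly equal. The summed hair cell and Schwann cell markers had this order as well, and its share among all genes was not counted.

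Ctnna1, Ctnnd1 and Ctnnb1, catenins found in most cells, were not higher in the apical turn by the contrast test. Ctnna1, the epithelial alpha-catenin, differed by 0.07 (adjusted p = 0.379) and Ctnnd1, p120-catenin, by -0.17 (adjusted p = 0.0761). Ctnnb1, beta-catenin, was higher in the basal turn, with means of 3746, 4065 and 4767 and a difference of -0.35 ± 0.0662 (SE, limma adjusted p = 0.00169). Other catenins and their relatives in the list went either way. By the limma contrast Ctnnd2 differed by -0.06 (adjusted p = 0.643) and Jup by -0.08 (adjusted p = 0.341). Arvcf differed by 0.26 (adjusted p = 0.0464), Pkp4 by 0.40 (adjusted p = 0.00031) and Ctnnal1 by -0.46 (adjusted p = 0.000226).

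The split of calls depended on the scale. Scaled to the spike-in probes in place of the 75th percentile, the median of all genes moved from -0.04 to -0.52 between apical and basal turns, and 6 members were higher in the apical and 18 in the basal turn by the contrast test, against 9 and 4. On that scale 15109 genes passed, of which 5.13% were higher in the apical turn, beside 25% of the 24 members that passed. With the scaling of the report these shares were 45% and 69.2%. By the 2-fold rule the split was 3 and 2, against 4 and 0. Of all genes called so, 14.7% were higher in the apical turn, against 74.5%. Between apical and middle turns the contrast gave 3 and 8 on this scale, against 3 and 1, and between middle and basal turns 5 and 8, against 9 and 2. Of all genes that passed these contrasts, 2.69% were higher in the apical turn, against 36.8%, and 10.3% were higher in the middle turn, against 55.9%. Cdh6, Pcdh17, Cdh9 and Cdh18 were still higher in the apical turn, by 1.34, 1.23, 1.23 and 0.55, and each passed the contrast test. Quantile normalization and scaling to the median each gave 3 members higher in the apical and 1 higher in the basal turn by the 2-fold rule, since Cdh18 was below 2-fold and Cdh29, whose probes are near background, above it. Of all genes called so, 66.4% and 61.6% were higher in the apical turn with these scalings. With quantile normalization the contrast split was 9 and 7 between apical and basal turns and 6 and 3 between middle and basal turns. Of all genes that passed these contrasts, 36.9% and 44.9% were higher in the turn nearer the apex. With scaling to the median the split was 7 and 3 between middle and basal turns and 3 and 2 between apical and middle turns. Here 38.1% and 18.6% of all genes that passed were higher in the turn nearer the apex.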

How the data were processed

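Whole-transcript exon arrays of 12 samples of the mouse cochlea, 4 per turn, were analyzed. The authors hybridized Cy3-labeled cRNA and extracted spots with Agilent Feature Extraction 10.7.3.1; the deposited files hold processed signal intensity, mean and background intensity, and flags per spot, with probe coordinates on mm9. The deposited series table held the same intensity values (largest relative difference 0). Groups came from the sample labels.

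Control spots (7914 of 180880) and 622 flagged spots were left out, which removed 119 probes. Signals were scaled to the 75th percentile, converted to log2, averaged over spots of a probe and over probes of a gene name, and fitted with limma 3.58.1 in R 4.3.3 with turn as the only term over all 12 arrays; p-values were adjusted by Benjamini-Hochberg over all 19505 genes or 165865 probes. The deposited flags were used for the well above background calls. Bounds ("at least N-fold") set a dim probe on each array to the higher of its own signal and the lowest signal well above background. Array number, not read depth, limits precision, and p-values measure the spread between these samples; the 3 turns came from the same 4 mice, but the labels do not tie a number to a mouse.

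Members, gene lists, markers and tests were chosen with earlier results of these data known, and differences were not adjusted over the list. Named with every array were members that passed the 2-fold rule and Cdh1 and Cdh2; named probes were those with the largest and smallest difference in 2-fold members and the 5 with the largest within-gene deviation; Cdh11 and Cdh12, the remaining Cdh6 and Pcdh7 probes and per-array values of other members were added after their values were seen. Genes of the lists not found on the array under those names were Taok2, Fer, Sox10 and Adgre1. Tested on simulated data with 200 genes or probes changed by 1.5 on the log2 scale, the gene-level test recovered 185 with 1 other call, the probe-level test 172 with 8 and the within-gene test 164 with 59. Alternatives were other scalings, normexp correction (offset 50), 16 added to each signal, other ways to average probes, fit options, a replicate block and leaving out each array.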

Additional observations from a re-analysis of the deposited data

Results flagged for a closer look

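Dixon's test was applied to the 4 arrays of each turn for each of the 32 genes, 96 groups in all, of which chance would flag about 4.8. It flagged 2. The Cdh7 signal of middle replicate 1 was 15.5, against 14.5 to 14.6 on the other middle arrays, with a gap of 0.868 of the range. The Pcdh10 signal of basal replicate 3 was 34.2, against 18.1 to 18.4 on the other basal arrays, with a gap of 0.980 of the range. Cdh7 is dim, and Pcdh10 had 3 of 7 probes well above background throughout a turn. Summed neuronal markers were also highest on middle replicate 1 among middle arrays and on basal replicate 3 among basal arrays, and their part in these values was not tested.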

How the results depend on the processing

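Cdh6, Cdh9, Cdh18 and Pcdh17 kept their direction and passed the contrast between apical and basal turns in all 27 settings each, the setting of the report included. Between apical and basal turns the 2-fold count of 4 became 1 with normexp correction, while that over all genes went from 856 to 312. Between middle and basal turns the 2-fold count of 2 became 1 with quantile normalization, scaling to the median, scaling to the spike-in probes, 16 added, linear means or probes well above background only, and 0 with normexp. Normexp gave 38 within-gene calls in place of 24. With medians of probes, apical against middle gave 1 member by the 2-fold rule and 2 by the contrast, and middle against basal gave 7 by the contrast. Scaling to the spike-in probes gave 24 members by the contrast between apical and basal turns, 11 between apical and middle turns, and 167 probes in place of 108. Over all genes these 2 contrasts called 15109 and 7930 on that scale, in place of 7645 and 2343. Apart from the spike-in scale, some members gained a call between apical and basal turns. Higher in the basal turn were Cdh4, Cdh16 and Cdh26 with quantile normalization and Pcdh1 with scaling to the median or linear means. Higher in the apical turn were Cdh24 with medians of probes and Cdh12 with linear means or probes well above background only. Pcdh20 was so with linear means, such probes only or normexp.

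Signs turned in these values between apical and basal turns. With quantile normalization Cdh12 was -0.045, Cdh20 -0.039, Cdh24 -0.17, Pcdh8 -0.015 and Pcdh9 -0.082. Scaled to the median Cdh1 was -0.064, Cdh12 -0.12, Cdh24 -0.096 and Pcdh9 -0.017. Scaled to the spike-in probes Cdh1 was -0.43, Cdh10 -0.11, Cdh12 -0.49, Cdh15 -0.37, Cdh20 -0.32, Cdh22 -0.25, Cdh24 -0.47, Pcdh8 -0.32, Pcdh9 -0.39, Pcdh19 -0.18 and Pcdh20 -0.15, and Pcdh19 between middle and basal turns was -0.11. With normexp Cdh20 was -0.033 and Cdh24 -0.025, and with 16 added Pcdh12 was 0.013. With medians of probes Cdh16 was 0.11, Cdh17 0.12, Cdh4 0.24 and Cdh8 0.031. With linear means Cdh1 was -0.031, Cdh15 -0.038, Cdh20 -0.24, Cdh24 -0.020, Cdh26 0.084, Cdh8 0.081, Pcdh12 0.094 and Pcdh8 -0.074. With probes well above background only Cdh10 was -0.14, Cdh20 -1.13, Cdh24 -0.052, Cdh26 0.0084, Pcdh12 0.22 and Pcdh8 -0.35. Of these, Pcdh19 passed with the scaling of the report. Some of the turned values were calls in the new direction. Scaled to the spike-in probes, 18 members passed as higher in the basal turn, several of those listed here among them. The cause of these shifts was not tested.

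Leaving out each array in turn gave 3 to 5 members by the 2-fold rule between apical and basal turns, 0 to 2 between apical and middle turns and 1 to 2 between middle and basal turns. The contrast gave 11 to 14, 3 to 4 and 8 to 13 members, partners 16 to 20, member probes 93 to 110 and within-gene probes 13 to 27, the last with 13 without basal replicate 2 and 14 without apical replicate 1 or 2. The 2-fold count between middle and basal turns was 1 without middle replicate 1, basal replicate 2 or basal replicate 4. That between apical and middle turns was 1 without apical replicate 4 or middle replicate 1 and 2 without middle replicate 2. Signs turned in Cdh12 (-0.048 to 0.079), Cdh17 (-0.14 to 0.012), Cdh24 (-0.042 to 0.11), Cdh26 (-0.075 to 0.0072), Cdh4 (-0.11 to 0.039), Cdh8 (-0.21 to 0.083) and Pcdh12 (-0.24 to 0.097), none of which passed. Calls between apical and basal turns were gained by Pcdh10 and Cdh10 without basal replicate 3 and by Pcdh20 without apical replicate 1. Calls between middle and basal turns were lost in 7 of 12 such fits for Pcdh19, 5 for Pcdh7 and 2 each for Cdh15 and Cdh29.

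Same-numbered arrays of different turns had a mean correlation of their deviations of 0.09 over 12 pairs (-0.04 to 0.23, 6 over 0.1), against -0.03 over 36 other pairs (2 over 0.1), and 8 of 12 arrays correlated best with their own number. This is a hint from the data that numbers may mark a mouse; since the labels do not say so and not every pair was over 0.1, the fits without the block were kept. With the replicate block, 55 of 56 results kept their call, and Cdh19 between apical and middle turns did not pass (adjusted p = 0.0632). Among members with 10 or more probes, dim probes limit Cdh7, Cdh8, Cdh10, Cdh12, Cdh17 and Cdh20, with 3 or fewer probes well above background throughout a turn. Among members with fewer probes they limit Pcdh8 and Pcdh12, with 1 of 4 such probes each, Pcdh20, with 1 of 2, Pcdh10, with 3 of 7, and Cdh29, with none.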
